A study of Mus musculus with 12 samples.

Results

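PPARG, C/EBP and EBF factors are the transcription factors that turn a preadipocyte into a fat cell, and 9 genes of this group were followed, namely Pparg, Rxra, Rxrg, Cebpa, Cebpb, Cebpd, Ebf1, Ebf2 and Zfp423. They were taken by gene symbol from the table of normalized read counts, and all 9 were found among its 48321 genes. Of these, 8 reached the filter of at least 10 normalized counts in at least 3 libraries, as did 11998 genes in all, and Rxrg did not. Without stimulation, Ebf2 (7.28-fold), Cebpa (5.81-fold), Pparg (3.58-fold), Rxra (2.18-fold) and, less so, Ebf1 (1.29-fold) were lower in the libraries labelled as transduced with soluble Sema4B than in those labelled empty vector, whereas Cebpd was 1.72-fold higher. After norepinephrine (NE), the differences of Rxra and Cebpd did not pass the test. NE raised Cebpb 2.36-fold and Cebpd 2.55-fold in the libraries labelled empty vector and lowered Pparg and Ebf1. In those labelled as transduced with Sema4B, NE also raised Cebpd (1.86-fold) and lowered Ebf1. No member passed the test of a difference between these NE responses. The lower Ebf1 without stimulation and the fall of Pparg with NE did not pass the test in some alternatives (8 of 17 and 3 of 17). The empty-vector libraries also had many Sema4b reads, as given below, so these directions rest on the labels.

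The cells were immortalized brown adipocytes. Wild-type (WT) preadipocytes of C57BL/6J interscapular brown fat, which the methods trace to a single newborn animal, had been immortalized with the SV40 large T antigen and carried either the empty lentiviral vector pLEX or a construct for tSema4B, a truncated, Flag-tagged form of Sema4B that stands for the ectodomain released from the cell surface. One stable, puromycin-selected line stood for each construct. All groups shared the same differentiation. Induction medium with 1 mM IBMX, 2 μM rosiglitazone, 10 μM dexamethasone, 1 μg/ml insulin and 2 nM T3 was given on days 0 and 2, maintenance medium with insulin and T3 on days 4 and 6, and the cells were used on day 8. Each line was then kept for 6 h in serum-free medium with 2 μM NE or, as the unstimulated state, without it, which gave 4 groups of 3 libraries. According to the labels, libraries within a group are technical replicates, and the p-values measure the spread between libraries of 1 line and do not cover the variation between transduced lines or, where libraries share a culture, between cultures.

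PPARG is a nuclear receptor that binds DNA together with a retinoid X receptor (RXR) and is needed for the formation and upkeep of fat cells. In the classical order of adipogenesis, C/EBPβ and C/EBPδ appear first, in answer to cAMP and glucocorticoid, and help to switch on Pparg and Cebpa, which then maintain each other and occupy the regulatory regions of most genes of the mature adipocyte. EBF1 acts in the same programme, EBF2 marks brown and beige fat precursors and directs PPARG to brown-selective genes, and ZFP423 is a zinc finger protein of committed preadipocytes that binds EBF factors. Rosiglitazone, part of the induction medium of all 4 groups, is a PPARG ligand.

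The depth was 2000780 to 5409583 reads counted on genes per library. It was greater for vector than for tSema4B in either condition, and the part of depth in the results was tested by thinning the reads, which is given where it changed a call. Sema4b, the transduced gene, had 106135 to 131764 reads in each unstimulated library labelled empty vector (3.58% to 4.02% of all its reads, rank 2 among genes) and 110464 to 121674 in each NE-treated one (2.04% to 2.57%, rank 2 or 3). In the libraries labelled tSema4B it took 8.53% to 10.2% without NE and 7.01% to 8.88% with NE, and ranked 1. In normalized counts the tSema4B libraries were 2.41-fold and 3.15-fold higher (log2 fold change 1.27 and 1.65, limma adjusted p = 9.45e-10 and 1.21e-11), with no overlap. Such a level in libraries labelled empty vector goes against an empty construct as the label gives it, and reads of the resident gene and of a construct were not separated here. The names vector and tSema4B below are therefore those of the labels, and each direction between them is one between libraries so labelled. The paper reports from qPCR of such transduced cells that tSema4B repressed Pparg and Cebpa, and from oil red staining that tSema4B cells held less lipid. Its own RNAseq analysis of these libraries already names Pparg among the genes lower in tSema4B without NE. For primary adipocytes given recombinant tSema4B, it reports a reduction of Cebpa that did not reach statistical significance. The summed level of 7 mature adipocyte markers was 26736 to 29176 normalized counts in unstimulated vector libraries and 3665 to 5851 in unstimulated tSema4B libraries, and after NE it was 38295 to 50376 and 5979 to 7095. All 7 were called lower in both comparisons of the lines, against 2.71% of all genes without NE and 3.73% with NE. The summed level of 15 preadipocyte or fibroblast markers was higher in tSema4B, with 32541 to 33082 against 58268 to 67342 without NE and 25127 to 28301 against 51242 to 55708 with NE. The 3 collagen genes Col1a1, Col1a2 and Col3a1 made up 74.9% to 82.9% of this sum, and the other 12 genes summed to 7544 to 8167 against 10773 to 11970 without NE and 6077 to 6275 against 8989 to 9748 with NE. Of the 15, 4 were called higher without NE and 5 with NE, against 1.11% and 2.03% of all genes, and 10 and 11 were higher at the adjusted p alone (5.64% and 9.79%), with 0 lower. Thy1 (59.8 against 55.2 normalized counts) and Lum (19.3 against 16.6) were among those that did not pass without NE, and Vim (1475 against 1467) among those that did not with NE. The 8 brown adipocyte markers summed to 164 to 230.2 against 41.7 to 69.8 normalized counts without NE and to 477 to 507 against 119 to 152 with NE. Of these, 6 were tested, and 4 were called lower and 0 higher in tSema4B in each condition. Ppargc1a was not among the 4 and had means of 20.8 against 32.8 without NE and 13.5 against 18.3 with NE (limma adjusted p = 0.682 for each). Dio2 had no read in any group, and Cox8b had 0 to 5 reads in vector libraries and 0 in tSema4B libraries. In these bulk libraries, fewer mature adipocytes and less RNA of a gene per cell cannot be told apart, and the part of the marker levels in the results below was not tested. Macrophage and endothelial markers summed to at most 24.6 and 21.9 normalized counts per library.

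Counts by comparison were as follows. A gene was called at a limma adjusted p (Benjamini-Hochberg over the 11998 genes tested, two-sided) of 0.05 or less together with a change of 1 or more on the log2 scale in either direction, that is 2-fold. Fold changes are on the scale of log2(normalized count + 1). In unstimulated cells, 4 members (Pparg, Cebpa, Rxra and Ebf2) were called lower in tSema4B and 0 higher, against 2.71% of all genes called lower and 1.11% called higher. At the adjusted p alone, Ebf1 was also lower and Cebpd was higher, where the shares of all genes were 7.39% and 5.64%. The 3 libraries of one line lay apart from those of the other for 5 members that were lower and 1 that was higher in tSema4B, against 15.1% and 14.2% of all genes. After NE, Pparg, Cebpa and Ebf2 were called lower (3 members, 3.73% of all genes) and 0 were called higher (2.03%). Ebf1 was the fourth member past the adjusted p, at which 11.2% of all genes were lower and 9.79% higher. Here 5 of the 8 tested members were lower and 1 was higher without overlap, against 19.8% and 17.9%. Rxrg, which was not tested, had 0 reads in NE-treated tSema4B and so did not overlap either.

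In the libraries labelled empty vector, NE raised Cebpb and Cebpd past both thresholds (2 members, 1.66% of all genes called higher), and 0 members were called lower (0.975%). Pparg and Ebf1 fell at the adjusted p alone, at which 4.78% of all genes fell and 6.82% rose. Groups did not overlap for 2 members that were higher and 4 that were lower with NE (17.6% and 15.7% of all genes). In the tSema4B line NE moved no member past both thresholds by limma, where 1.31% of all genes were called higher and 0.758% lower. The count was also 0 by edgeR and by DESeq2, while 4 members had an unadjusted p under 0.05 by limma. At the adjusted p alone Cebpd was higher (3.68% of all genes) and Ebf1 lower (2.58%), and the groups did not overlap for 2 members that were higher and 1 that was lower (11.0% and 9.64%). No member passed the test of the interaction, in which the NE responses of the lines are subtracted (limma, smallest adjusted p = 0.443, with 1 member at an unadjusted p under 0.05), and of all genes 0.025% did. The interaction count of members was 0 by edgeR and DESeq2 as well. The comparisons share libraries, so they are not independent of each other.

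**Figure D1:**
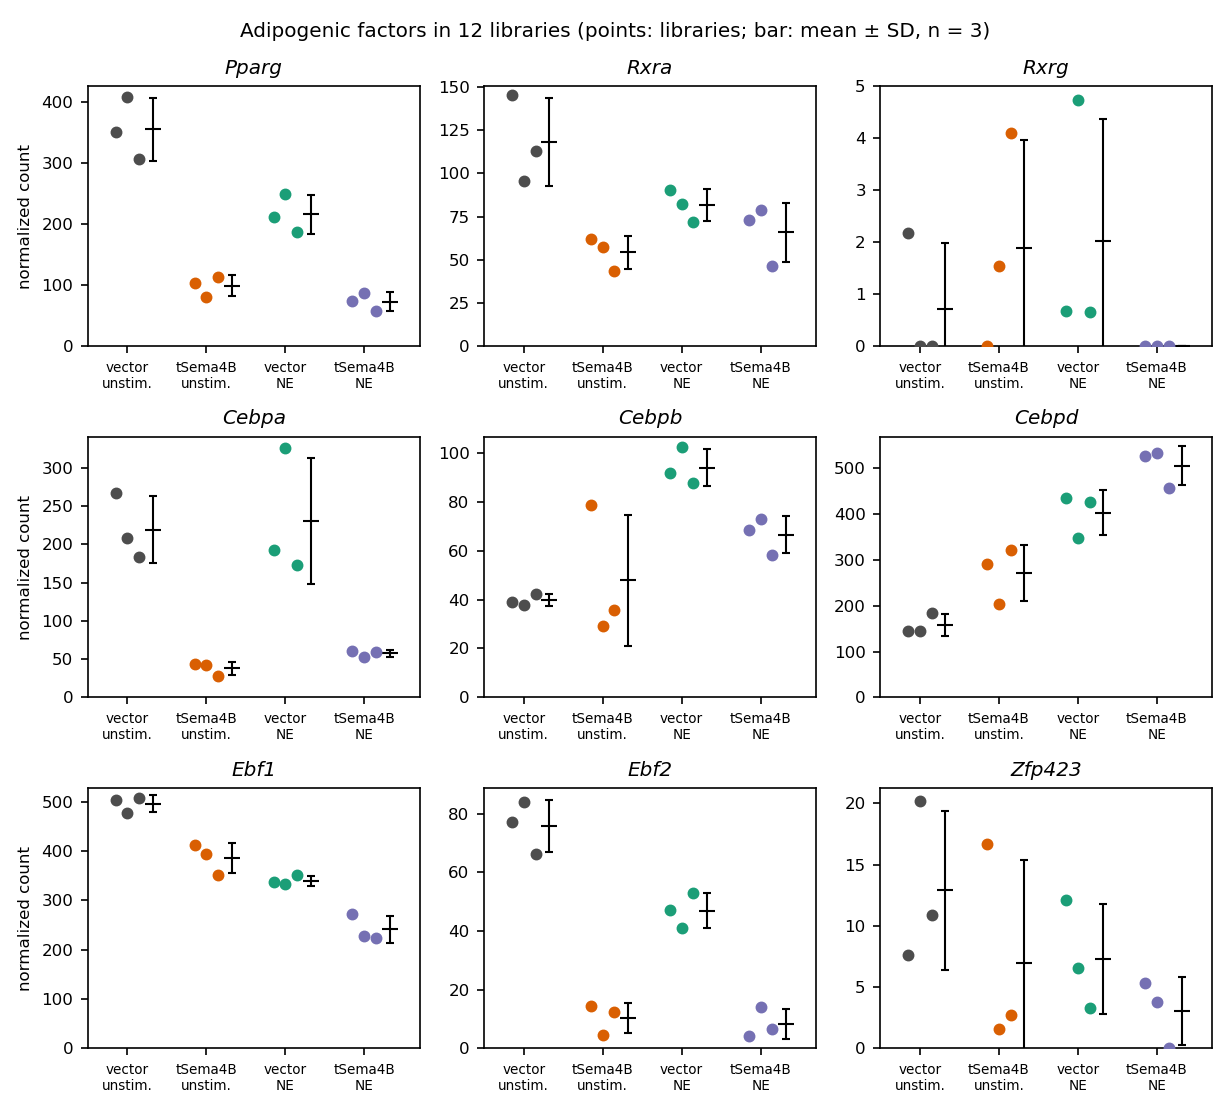
Normalized counts (vertical axes, linear, from 0) of the 9 genes in each of 12 libraries, by group (horizontal axes), with points for libraries in replicate order and a bar for the mean ± SD (n = 3). Pparg, Cebpa and Ebf2 stand lower in both tSema4B groups than in both vector groups, Cebpd is highest in the NE-treated tSema4B libraries, and Rxrg stays under 5 normalized counts.

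Pparg (ENSMUSG00000000440.12; chromosome 6 from 115360951 to 115490399, plus strand, GRCm38) had 351, 409 and 307 normalized counts in the unstimulated vector libraries and 104, 80.4 and 114 in the unstimulated tSema4B libraries. With NE the values were 212, 250.1 and 187 in vector and 74.0, 88.1 and 58.1 in tSema4B. Every tSema4B library thus lay below every vector library, whatever the condition, and the NE-treated vector libraries formed a middle level. The means were 3.58-fold lower in tSema4B without NE (log2 fold change -1.84, SE 0.187, limma adjusted p = 2.75e-07) and 2.95-fold lower with NE (log2 fold change -1.56, adjusted p = 3.06e-06). NE lowered Pparg in vector cells from 356 ± 51.3 to 217 ± 31.6 (SD, n = 3; log2 fold change -0.71, 95% interval -1.10 to -0.33, limma adjusted p = 0.0146). This change was smaller than 2-fold, and its adjusted p rose above 0.05, to at most 0.0920, when vector NE replicate 1 or 3 or unstimulated vector replicate 2 was left out. In tSema4B cells the means were 99.3 ± 17.0 and 73.4 ± 15, the groups overlapped, and the test was not passed (log2 fold change -0.44, limma adjusted p = 0.187). The difference between these NE responses was 0.28 (95% interval -0.27 to 0.83 on the log2 scale), which includes no difference.

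The table counts reads per gene and does not separate Pparg1 from Pparg2, which start at different promoters. The window before the downstream start is shown because it is the one of 3 RefSeq windows of Pparg that holds matches to the C/EBP letters searched. It is chr6:115421816-115422065 on the plus strand (RefSeq, GRCm38.p6), the 250 bases before the start, 5′ to 3′, with the matches to TTGCNNAA on either strand in capitals.
Pparg downstream start: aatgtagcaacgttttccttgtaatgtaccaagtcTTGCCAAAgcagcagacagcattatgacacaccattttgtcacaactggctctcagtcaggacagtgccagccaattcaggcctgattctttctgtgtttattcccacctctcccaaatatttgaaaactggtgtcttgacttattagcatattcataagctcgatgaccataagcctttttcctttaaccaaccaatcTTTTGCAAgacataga
The matches end 208 bases before the start on the plus strand and 9 bases before it on the minus strand. Of 32536 promoter windows of the same length, 9.57% hold at least 1 match to these letters, so a match describes the sequence and is not a measured site.

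Rxra (ENSMUSG00000015846.14; chromosome 2 from 27676440 to 27762957, plus strand) encodes RXRα, a receptor with which PPARG forms dimers. Its normalized counts were 146, 95.9 and 113 in unstimulated vector, 62.0, 57.2 and 43.8 in unstimulated tSema4B, 90.7, 82.4 and 72.0 in NE-treated vector and 72.9, 78.6 and 46.2 in NE-treated tSema4B. The vector libraries were all above the tSema4B libraries without NE, but the groups overlapped after NE. The means differed 2.18-fold without NE (118 ± 25.2 against 54.3 ± 9.42; log2 fold change -1.10, SE 0.243, limma adjusted p = 0.00336). This difference lay close to the fold threshold, and it was -0.94 without unstimulated vector replicate 1 and -0.96 without unstimulated tSema4B replicate 3, with adjusted p of 0.0352 and 0.0191. After NE the log2 fold change was -0.34 (95% interval -0.84 to 0.17, limma adjusted p = 0.361). NE shifted Rxra by -0.51 in vector (adjusted p = 0.201) and by 0.25 in tSema4B (adjusted p = 0.627), and the difference of 0.77 between these shifts (95% interval 0.05 to 1.48) had the interaction p named above, 0.443 after adjustment over all genes by limma.

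Rxrg (ENSMUSG00000015843.10; chromosome 1 from 167598384 to 167639623, plus strand), which encodes RXRγ, was barely read. It had 2 reads in all in unstimulated vector, 4 in unstimulated tSema4B, 10 in NE-treated vector, 8 of them in replicate 2, and 0 in NE-treated tSema4B. With at most 3 reads per library it was undetected in every group but NE-treated vector, and a difference between groups was not detectable at this depth.

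Cebpa (ENSMUSG00000034957.10; chromosome 7 from 35119293 to 35121928, plus strand, 1 exon) encodes C/EBPα, which keeps Pparg expressed in mature fat cells. It had 267, 208 and 183 normalized counts in unstimulated vector and 44.1, 41.8 and 27.4 in unstimulated tSema4B. In NE-treated cells the libraries had 193, 325 and 174 in vector and 61.1, 52.1 and 59.5 in tSema4B. The highest tSema4B value of either condition was below the lowest vector value, and vector NE replicate 2 stood above the other vector libraries. Cebpa was 5.81-fold lower in tSema4B without NE (219 ± 43.3 against 37.7 ± 9.05; log2 fold change -2.52, SE 0.239, limma adjusted p = 1.10e-07) and 4.01-fold lower with NE (231 ± 82.7 against 57.6 ± 4.82; log2 fold change -1.93, limma adjusted p = 4.49e-06). The value without NE rested on 20 to 37 reads per tSema4B library, which gives a counting error of 16.4% to 22.4%. In vector cells the log2 fold change with NE was 0.03 (95% interval -0.46 to 0.53), and its sign changed with the libraries used. In tSema4B cells the NE libraries lay above the unstimulated ones, but the log2 fold change of 0.62 did not pass the test (limma adjusted p = 0.133).

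The Cebpa promoter is shown because the gene had the lowest level relative to vector of the C/EBP members. It is chr7:35119043-35119292 on the plus strand (RefSeq, GRCm38.p6), with a match to TTGCG, the core of a C/EBP site, in capitals.
Cebpa: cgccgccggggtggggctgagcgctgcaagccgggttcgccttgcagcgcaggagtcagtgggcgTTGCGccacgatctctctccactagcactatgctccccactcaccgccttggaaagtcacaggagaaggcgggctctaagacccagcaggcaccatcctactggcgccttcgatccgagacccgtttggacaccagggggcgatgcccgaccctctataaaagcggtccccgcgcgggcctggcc
The match spans bases 185 to 181 before the start, and 14.6% of all windows hold these letters on at least 1 strand. TTGCG may overlap a match to TTGCNNAA, of which this window has none.

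Cebpb (ENSMUSG00000056501.3; chromosome 2 from 167688915 to 167690418, plus strand, 1 exon) encodes C/EBPβ, an early factor of adipogenesis that also answers to cAMP. The unstimulated vector libraries had 39.1, 37.8 and 42.5 normalized counts and the NE-treated ones 92.1, 103 and 87.7. In tSema4B the values were 78.7, 29.4 and 35.6 without NE and 68.6, 72.9 and 58.1 with NE. The vector groups were well apart, whereas unstimulated tSema4B replicate 1 was higher than all 3 NE-treated tSema4B libraries. NE raised Cebpb 2.36-fold in vector (39.8 ± 2.40 to 94.1 ± 7.61; log2 fold change 1.22, SE 0.292, limma adjusted p = 0.00809). When all libraries were thinned to the depth of the shallowest, this value was 0.97 with an adjusted p of 0.0455, just under the fold threshold. In tSema4B the log2 fold change was 0.59 (47.9 ± 26.8 to 66.6 ± 7.60, limma adjusted p = 0.263), and it was 1.01 and called (adjusted p = 0.0270) without unstimulated tSema4B replicate 1. The responses of the lines differed by -0.63 (95% interval -1.48 to 0.23), which does not show that they differ or that they are alike.

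Between the lines, Cebpb did not differ past the test. The log2 fold change of tSema4B against vector was 0.13 without NE (95% interval -0.48 to 0.74, limma adjusted p = 0.833) and -0.50 with NE (95% interval -1.10 to 0.11, limma adjusted p = 0.248), where the 3 tSema4B libraries lay below the 3 vector libraries. The antisense genes Gm45091, which shares 51 exon bases with Cebpa, and Gm10860, which shares 424 with Ebf2, had at most 2 reads and no read in any library. In the annotation, 312 exon bases of Cebpb (20.7%) are shared with Tmem189 on the other strand, and these libraries do not mark strand. The log2 fold change of Tmem189 for NE in vector was -0.57 (limma adjusted p = 0.377).

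The Cebpb promoter is shown because the gene rose with NE, a stimulus that acts through cAMP in brown fat cells. It is chr2:167688665-167688914 on the plus strand (RefSeq, GRCm38.p6), with matches to TGACG, the core of a cAMP response element, in capitals on either strand.
Cebpb: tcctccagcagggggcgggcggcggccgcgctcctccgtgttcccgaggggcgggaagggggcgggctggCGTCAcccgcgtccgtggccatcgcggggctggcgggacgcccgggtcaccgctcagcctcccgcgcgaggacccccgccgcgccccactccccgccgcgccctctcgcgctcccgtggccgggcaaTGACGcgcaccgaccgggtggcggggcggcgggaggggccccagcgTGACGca
The window holds 3 matches, at bases 180 to 176 before the start on the minus strand, and at 53 to 49 and 7 to 3 on the plus strand. At least 1 match is held by 17.9% of all windows, and the share with 3 matches was not counted. G and C make up 81.6% of this window. Here and for Cebpa, a match describes the sequence and is not a measured site. The part of cAMP in the rise of Cebpb was not tested. The full element TGACGTCA, which contains TGACG, is in 1.56% of windows and in none of the 13 windows found for 7 of the 9 members (all but Cebpd and Ebf2). Of the other member windows, 1 of the 2 windows of Rxra and of Ebf1 holds TTGCG, and 1 of the 2 windows of Rxrg and of Zfp423 holds TTGCNNAA.

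Cebpd (ENSMUSG00000071637.5; chromosome 16 from 15887286 to 15891031, plus strand, 1 exon) encodes C/EBPδ, the early partner of C/EBPβ that answers to glucocorticoid. Its libraries had 146, 144 and 185 normalized counts in unstimulated vector, 291, 203 and 322 in unstimulated tSema4B, 436, 347 and 426 in NE-treated vector and 527, 533 and 457 in NE-treated tSema4B. Each group lay above the one named before it, with no overlap between neighbours. NE raised Cebpd 2.55-fold in vector (158 ± 23.4 to 403 ± 49.0; log2 fold change 1.35, SE 0.158, limma adjusted p = 5.17e-06). In tSema4B the increase was 1.86-fold (272 ± 61.8 to 506 ± 42.1; log2 fold change 0.92, limma adjusted p = 6.85e-04), just under the fold threshold, and it was 1.05 and called without unstimulated tSema4B replicate 3. The difference of the responses was -0.43 (95% interval -0.89 to 0.03).

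Cebpd was also the member that was higher past the adjusted p in tSema4B than in vector, and it was so without NE. Without NE the difference was 1.72-fold (log2 fold change 0.76, limma adjusted p = 0.00195), and with NE it was 1.25-fold and did not pass the test (log2 fold change 0.33, limma adjusted p = 0.148), although the libraries did not overlap. Cebpd shares 562 exon bases (15%) with Spidr on the other strand. Spidr moved in the same direction, with a log2 fold change of 0.65 between the lines without NE (limma adjusted p = 0.0142) and of 0.69 for NE in vector (limma adjusted p = 0.0113). It did not pass the test for NE in tSema4B (0.23, limma adjusted p = 0.517) or between the lines with NE (0.18, limma adjusted p = 0.501). The part of shared reads in the Cebpd values was not tested.

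**Figure D2:**
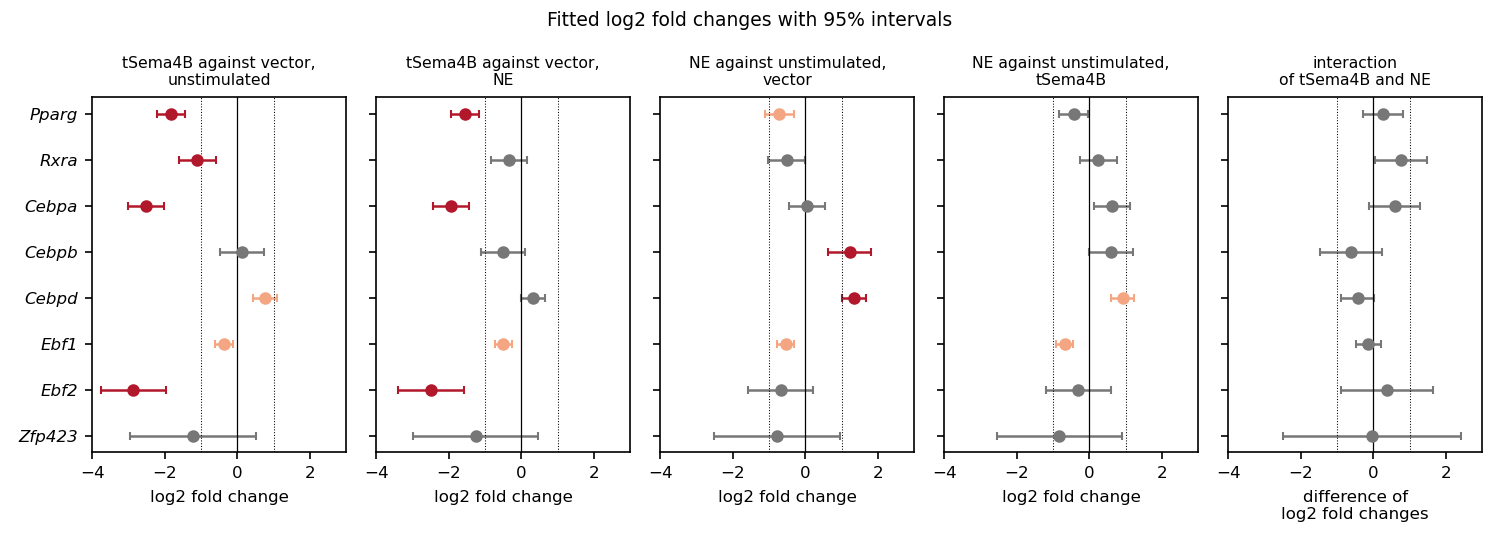
Fitted log2 fold changes (points, horizontal axes) with 95% intervals (bars) of the 8 members tested, in 5 panels by comparison, with dotted lines at -1 and 1. Dark red marks members past both thresholds (for the interaction, past the adjusted p), light red those past the adjusted p alone and grey the others. Cebpa (-2.52 and -1.93) and Ebf2 (-2.87 and -2.49) lie farthest to the left in the comparisons of the lines, Cebpb and Cebpd lie to the right under NE in vector, Cebpd (0.92), Cebpa (0.62) and Cebpb (0.59) do so in tSema4B, and every point of the interaction is grey.

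The make-up of C/EBP transcripts differed with these values. Divided by exon length (GENCODE M21, GRCm38) and summed over the 3 genes, the share of Cebpa was 54.5% ± 6.93 (SD, n = 3) in unstimulated vector and 12.6% ± 4.64 in unstimulated tSema4B. After NE it was 33.4% ± 8.70 and 10.9% ± 1.47. Cebpa thus made up the largest share in unstimulated vector cells, and the smallest in both tSema4B groups. Cebpd took 28.0%, 61.7%, 42.3% and 67.1% in unstimulated vector, unstimulated tSema4B, NE-treated vector and NE-treated tSema4B, whereas the group means of Cebpb lay between 17.5% and 25.7%, and its single libraries between 15.6% and 35.7%. RefSeq gives Cebpd a length of 2260 bases, against 3746 in GENCODE. With RefSeq lengths, an alternative chosen after seeing the data, the shares of Cebpa became 46.2%, 9.02%, 26.4% and 7.59%. By group means, Cebpd was the largest share in every group but unstimulated vector with either set of lengths. In unstimulated vector it took 39.1% with the RefSeq lengths. In unstimulated vector replicate 3, Cebpd (45.7%) was above Cebpa (38.7%) with the RefSeq lengths. On the log2 scale, normalized counts of Cebpa relative to Cebpd went from 0.46 ± 0.45 in unstimulated vector to -2.82 ± 0.64 in unstimulated tSema4B, and from -0.85 ± 0.66 to -3.11 ± 0.21 after NE.

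**Figure D3:**
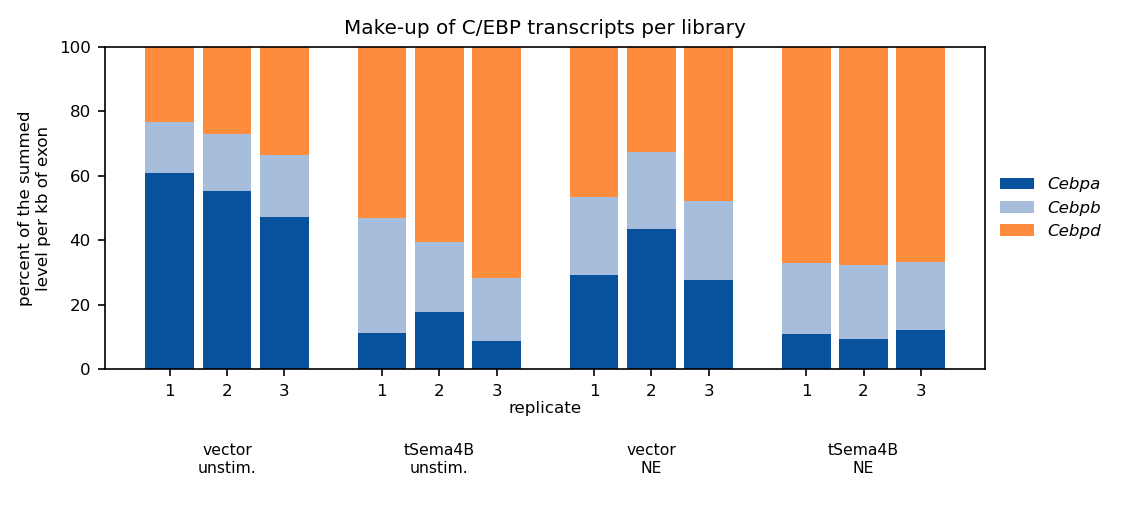
Percent of the summed C/EBP level per kb of exon (vertical axis, from 0) taken by Cebpa, Cebpb and Cebpd in each of the 12 libraries (stacked bars, horizontal axis by group and replicate). The dark blue part for Cebpa lies between 47.2% and 61.0% in unstimulated vector libraries and between 8.66% and 17.7% in unstimulated tSema4B libraries.

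Ebf1 (ENSMUSG00000057098.14; chromosome 11 from 44617317 to 45008091, plus strand) was the EBF gene with more reads. Its normalized counts were 503, 476 and 508 in unstimulated vector, 411, 393 and 352 in unstimulated tSema4B, 336, 332 and 351 in NE-treated vector and 272, 227 and 223 in NE-treated tSema4B. The libraries of tSema4B lay below those of vector in each condition, and those with NE below those without it in each line. NE lowered Ebf1 in vector (495 ± 17.1 to 339.6 ± 10.0; log2 fold change -0.54, SE 0.115, limma adjusted p = 0.00333) and in tSema4B (385 ± 30.4 to 241 ± 27.3; log2 fold change -0.68, limma adjusted p = 6.17e-04). Between the lines the log2 fold change was -0.36 without NE (limma adjusted p = 0.0395) and -0.50 with NE (limma adjusted p = 0.00345). For the value without NE, the adjusted p exceeded 0.05 in 8 of 17 alternatives (up to 0.134). These were the same total per library, no filter, thinned reads, each unstimulated vector library left out and unstimulated tSema4B replicate 2 or 3 left out. All 4 of these differences were smaller than 2-fold.

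Ebf2 (ENSMUSG00000022053.13; chromosome 14 from 67233292 to 67430918, plus strand), the brown-selective EBF, had 77.1, 84.1 and 66.4 normalized counts in unstimulated vector and 14.3, 4.64 and 12.3 in unstimulated tSema4B. With NE it had 47.0, 40.9 and 53.0 in vector and 4.29, 14.2 and 6.61 in tSema4B. All tSema4B libraries were far below all vector libraries, and they overlapped with each other. Its mean was 7.28-fold lower in tSema4B without NE (75.9 ± 8.88 against 10.4 ± 5.10; log2 fold change -2.87, SE 0.436, limma adjusted p = 6.56e-05) and 5.62-fold lower with NE (47.0 ± 6.07 against 8.37 ± 5.19; log2 fold change -2.49, limma adjusted p = 2.67e-04). The tSema4B values rest on 3 to 12 reads per library without NE and 4 to 15 with NE, so the size of the fold is loosely known (95% interval of the log2 fold change -3.77 to -1.96 without NE). In vector, NE-treated libraries lay below unstimulated ones, but the test was not passed (log2 fold change -0.68, limma adjusted p = 0.369). The log2 ratio of Ebf1 to Ebf2 counts was 2.7 ± 0.21 in unstimulated vector and 5.20 ± 0.80 in unstimulated tSema4B, and the 3 values of each group did not overlap with those of the other.

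Zfp423 (ENSMUSG00000045333.15; chromosome 8 from 87661810 to 87959595, minus strand) was low throughout. It had 7.60, 20.2 and 10.9 normalized counts in unstimulated vector, 16.7, 1.55 and 2.74 in unstimulated tSema4B, 12.1, 6.52 and 3.27 in NE-treated vector and 5.36, 3.79 and 0 in NE-treated tSema4B. The groups overlapped in every comparison. Its log2 fold change between the lines was -1.23 without NE (95% interval -2.96 to 0.50, limma adjusted p = 0.382) and -1.26 with NE (limma adjusted p = 0.310), on 0 to 24 reads per library, so that a 2-fold difference was not detectable at this depth.

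Levels can be set beside each other only per length of the transcript. In normalized counts per kb of exon, the order in unstimulated vector cells was Pparg (120.5 ± 17.4), Cebpa (83.2 ± 16.4), Ebf1 (50.8 ± 1.75), Cebpd (42.2 ± 6.25), Cebpb (26.5 ± 1.60), Rxra (21.6 ± 4.61), Ebf2 (11.0 ± 1.28), Zfp423 (2.30 ± 1.16) and Rxrg (0.315 ± 0.546). Ebf1 and Cebpd overlapped, as did Cebpb and Rxra, and the other neighbours did not. The place of Cebpd turns on the annotation, since with the RefSeq lengths of the C/EBP genes, added after seeing the data, it had 70.0 ± 10.4 per kb, above Ebf1 without overlap, and overlapped with Cebpa. In unstimulated tSema4B cells Cebpd led with 72.5 ± 16.5 per kb, above Ebf1 (39.5 ± 3.11), Pparg (33.6 ± 5.77) and Cebpb (31.8 ± 17.8), of which neighbours overlapped, with Cebpa (14.3 ± 3.43) below these. After NE, Cebpd led in both lines. In vector it had 108 ± 13.1 per kb and overlapped with Cebpa (87.5 ± 31.4), while Cebpa overlapped with Pparg (73.3 ± 10.7) and Pparg with Cebpb (62.6 ± 5.06). With the RefSeq length it had 178 ± 21.7 per kb here and no longer overlapped with Cebpa. In NE-treated tSema4B it had 135 ± 11.2 per kb, apart from Cebpb (44.3 ± 5.05), and Pparg (24.9 ± 5.07), Ebf1 (24.7 ± 2.79) and Cebpa (21.8 ± 1.83) overlapped as neighbours.

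**Figure D4:**
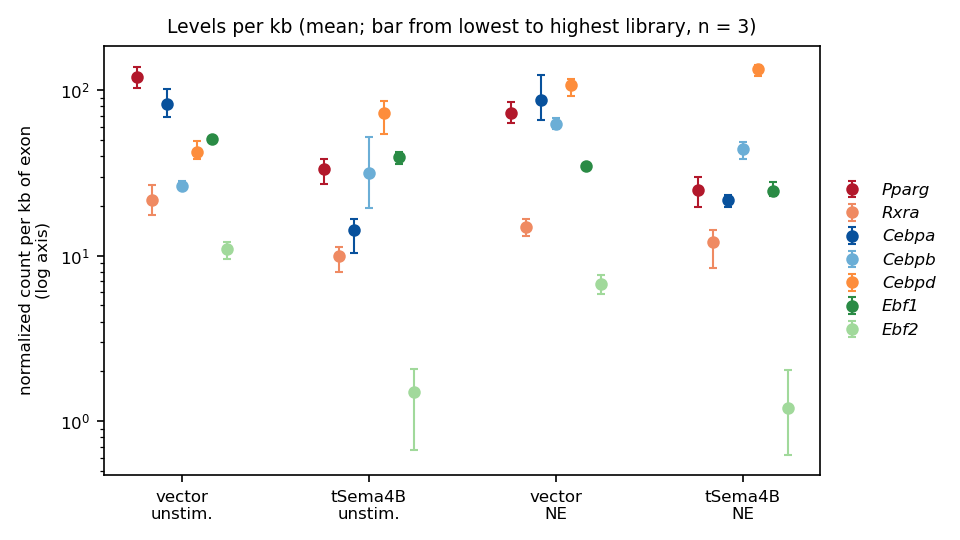
Normalized counts per kb of exon (vertical axis, log scale) of 7 members in the 4 groups (horizontal axis), with points at the mean and bars from the lowest to the highest library (n = 3). Rxrg and Zfp423 are left out because libraries at 0 cannot be drawn on a log axis. Pparg is the highest point in unstimulated vector (120.5 per kb) and Cebpd the highest in the other groups (72.5, 108 and 135 per kb).

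The genes whose pattern over the 12 libraries was most like that of a member were looked up for Pparg, Cebpd and Ebf2 among 8246 tested genes with a mean of at least 50 normalized counts. For Pparg they were G0s2, Ptgr2 and Me1 (Pearson r of log2 values 0.984, 0.981 and 0.981). For Cebpd they were Steap1, Mgp and Osmr (0.954, 0.953 and 0.952), and for Ebf2 they were Glul, Atp2a3 and G0s2 (0.985, 0.972 and 0.961). G0s2, which encodes an inhibitor of the lipase ATGL, had means of 1175, 252, 736 and 176 normalized counts in unstimulated vector, unstimulated tSema4B, NE-treated vector and NE-treated tSema4B. Osmr, a receptor subunit for oncostatin M, had 351, 503, 827 and 865 in the same order. The libraries of a group share a line and a treatment, so these correlations describe 4 group levels more than 12 independent points.

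Around the members, genes of the same pathway were counted from lists. Of 28 adipocyte genes known as targets of PPARG and C/EBP, 27 were tested, and in unstimulated cells 24 were called lower in tSema4B and 0 higher (2.71% and 1.11% of all genes). All 27 were lower at the adjusted p alone (7.39%). The list shares 6 of the 7 mature adipocyte markers above. Retn, which encodes resistin, fell from 907 to 91.2 normalized counts (log2 fold change -3.39, limma adjusted p = 9.10e-11), and Cidea, a lipid droplet protein of brown fat, from 52.2 to 6.21 (log2 fold change -2.88, limma adjusted p = 9.92e-06). Ucp1, the uncoupling protein of brown fat, and Pck1, an enzyme of glyceroneogenesis, had no read in unstimulated tSema4B cells, which makes Ucp1 at least 2.96-fold and Pck1 at least 2.08-fold lower (against 3 reads per library, counting error only). The median log2 fold change was -2.10 as fitted and -1.92 with these 2 genes at their bounds, and that of all genes was -0.0025. With NE, 21 were called lower and 0 higher (3.73% and 2.03% of all genes), 27 were lower at the adjusted p alone (11.2%), and the median was -1.59 (-1.57 with Pck1 at its bound). Beside Pck1, the largest differences after NE were those of Retn (2034 to 224 normalized counts, log2 fold change -3.18), of Fabp4, a fatty acid carrier (-2.88), and of Cd36, a fatty acid transporter (-2.42), with limma adjusted p of at most 1.78e-10.

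Under NE, fewer target genes were called. In vector, Ucp1 (log2 fold change 4.42), Hp (1.23) and Retn (1.16) were called higher, 0 were called lower (1.66% and 0.975% of all genes), and 7 rose and 3 fell at the adjusted p alone (6.82% and 4.78%). In tSema4B, 5 were called higher and 0 lower (1.31% and 0.758% of all genes), 7 were higher and 1 was lower at the adjusted p alone (3.68% and 2.58%), and Ucp1 was at least 15.3-fold higher. The other called genes with the largest changes there were Hp (log2 fold change 1.53), Retn (1.38) and the lipid droplet gene Cidec (1.16). The medians were 0.02 and 0.19. Lpl, the lipoprotein lipase gene, was the target gene past the interaction test, with a response to NE that was 0.82 larger on the log2 scale in tSema4B (limma adjusted p = 0.00399). It passed in 21 of 22 alternatives and did not without the filter on low values (limma adjusted p = 0.139).

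Other members of the same families were counted next. Of 11 other C/EBP, PPAR, RXR, EBF and Zfp423-related genes, 8 were tested. In unstimulated cells 0 were called, where 2.71% of all genes were called lower and 1.11% higher. By the adjusted p of limma alone 0 passed, where 7.39% of all genes were lower and 5.64% higher. The median log2 fold change was 0.23. After NE, Zfp521, a homologue of Zfp423 that opposes EBF1, was higher in tSema4B (51.1 to 111 normalized counts, log2 fold change 1.11, limma adjusted p = 0.00856), and Rxrb, a further RXR gene, was lower (111 to 53.5, log2 fold change -1.07, limma adjusted p = 0.00279). These were 1 gene called in each direction, against 2.03% of all genes called higher and 3.73% lower. Cebpz was lower at the adjusted p alone (-0.52), where 11.2% of all genes were lower, and the median was -0.19. NE raised Rxrb and Cebpz in vector at the adjusted p alone (0.81 and 0.58), at which 6.82% of all genes rose, with a median of 0.42. In tSema4B, Zfp467 was called lower (log2 fold change -2.16, limma adjusted p = 0.0463), from 21.5 to 4.25 normalized counts, against 0.758% of all genes called lower, and the median was -0.08.

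Of 19 cofactors and chromatin regulators of PPARG, all 19 were tested and 0 were called in unstimulated cells, against 2.71% of all genes called lower and 1.11% higher. Nrip1, a corepressor of nuclear receptors, was lower in tSema4B at the adjusted p alone (log2 fold change -0.87, limma adjusted p = 0.0134), where 7.39% of all genes were lower. The median was 0.14. After NE, Ppargc1b, a coactivator of mitochondrial genes, was called lower (19.0 to 5.36 normalized counts, log2 fold change -1.64, limma adjusted p = 0.0142), with a median of 0.01. This was 1 of 19, against 3.73% of all genes. NE called 0 of the 19 in either line, with medians of -0.20 in vector and -0.16 in tSema4B. Of all genes, NE called 1.66% higher and 0.975% lower in vector and 1.31% and 0.758% in tSema4B, so a count of 0 is near the share of all genes.

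Of 25 further regulators that promote or oppose adipogenesis, transcription factors but for the transmembrane protein gene Dlk1, 23 were tested. In unstimulated cells Nr1h3, the gene of the liver X receptor α, and Klf15, which drives late adipocyte genes, were called lower in tSema4B (log2 fold changes -1.77 and -1.75, limma adjusted p = 0.00803 and 5.06e-04), and 0 were called higher (2.71% and 1.11% of all genes were called lower and higher). At the adjusted p alone 2 were higher, Nr2f2 (0.85) and Dlk1 (0.37), both of which oppose adipogenesis and of which Dlk1 is also among the preadipocyte markers above, and 4 were lower, with Srebf1 and Bcl6 at -0.61 each, where 5.64% of all genes were higher and 7.39% lower. Nr1h3 and Klf15 were again the called genes after NE (-2.11 and -1.40), where 3.73% of all genes were called lower and 2.03% higher. By the adjusted p alone 3 were higher and 3 lower, against 9.79% and 11.2% of all genes. The medians were -0.08 and 0.21. NE called 0 of the 23 in either line. Of all genes it called 1.66% higher and 0.975% lower in vector and 1.31% and 0.758% in tSema4B, so this count is near the share of all genes. By the adjusted p alone 1 rose and 5 fell in vector (6.82% and 4.78% of all genes). In tSema4B 0 rose and 3 fell (3.68% and 2.58%), and Egr2 and Dlk1 were among those that fell in each line. The plot of gene lists shows the target genes below 0 in both comparisons of the lines, and the other lists on both sides of 0.

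**Figure D5:**
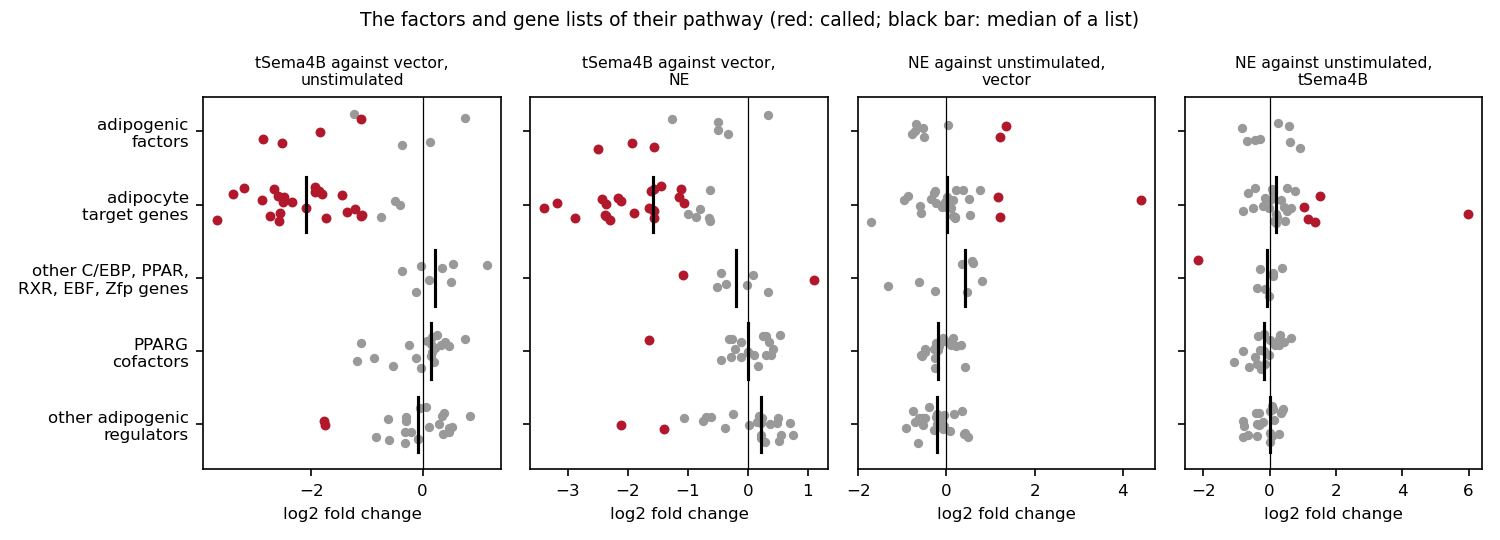
Fitted log2 fold changes (horizontal axes, 4 panels by comparison, each with its own scale) of the tested genes of 5 sets, with red points for genes past both thresholds, grey points for the others and a black bar at the median of each list. In the comparisons of the lines the target genes lie to the left (medians -2.10 and -1.59), and the bars of the other 3 lists lie between -0.19 and 0.23.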

How the data were processed

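RNAseq was performed on 12 libraries of immortalized murine brown adipocytes, 3 in each of 4 groups, made by SMART-Seq2 and Nextera XT and read as single-end reads. According to the paper's methods and the submitters' processing notes, the authors screened the reads, aligned them with STAR 2.7.9a to mm10 (GRCm38.p4), obtained gene-level read counts from htseq-count and scaled them by DESeq2 size factors. The signal they deposited is thus a normalized read count per gene. The annotation release, strandedness of the counting and treatment of multi-mapping reads are not given in the sources used here. Every non-zero value was a whole multiple of the value of 1 read (tolerance 0.01, 100% of values), which gave whole reads for the alternatives.

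Libraries were grouped by their labels, and no column was left unused. Log2 values with a pseudocount of 1 were fitted in R 4.3.3 with limma 3.58.1 (1 model of the 4 groups, variance trend), for genes with 10 or more normalized counts in at least 3 libraries. Genes were called where the Benjamini-Hochberg adjusted p was at most 0.05 and the log2 fold change at least 1 in size, or, for the interaction, by that p alone. An exact permutation test of 3 against 3 libraries cannot give a p under 0.1, so none is reported and the p-values rest on the spread limma pools over genes. The fit was first tested on simulated data. Intervals are 95%. Counting errors and the bound of 3 reads treat each read as a separate molecule, PCR copies included, and so cover counting error only. Libraries of a group differed by 3.56 to 5.79 chi-square per degree of freedom, so no library was a copy of another's reads. Whether they came from different cultures cannot be read from it.

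All 9 members are named in every comparison. From each other list, up to 4 called genes with the largest fold change are named. List genes past the adjusted p alone and single marker genes were named after their values were seen, and genes that share exons with a member were named from the annotation. For Pparg, Cebpd and Ebf2, the 3 other tested genes with the highest Pearson correlation over the 12 libraries are named, among genes with a mean of at least 50 normalized counts. Sema4b is named as the transduced gene. The members, the lists and these rules were chosen with earlier results of these data known. Gene positions, lengths and exon overlaps are from GENCODE M21 and promoter windows from RefSeq (GRCm38.p6). Motifs were searched on both strands of the 250 bases before each start. Motifs for EBF and for PPARG with RXR were searched too and had no match in a member's window. The alternatives changed the pseudocount to 0.5 or 10, removed the filter or raised it to 50 normalized counts, gave all libraries an equal total, or used quantile normalization, edgeR 4.0.16 (TMM, quasi-likelihood) and DESeq2 1.42.0 on whole reads, thinned reads, a fit restricted to the compared groups, a replicate block, the adjusted p alone, or one library fewer at a time. Gene lengths from RefSeq for the C/EBP shares and the order per kb were added after seeing the data. Same-numbered libraries of different groups were checked for pairing by the correlation of their deviations from the group means.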

Additional observations from a re-analysis of the deposited data

How the results depend on the processing

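Counts of members called were 4, 3, 2, 0 and 0 for tSema4B against vector without and with NE, NE in vector, NE in tSema4B and the interaction. They were the same with a pseudocount of 0.5, a filter of 50 normalized counts or none, both other scalings, edgeR and DESeq2. With the replicate block they were 4, 3, 2, 0 and 0 as well. Same-numbered libraries showed no pairing (18 pairs, correlations -0.047 to 0.0282, 0 over 0.1), and the block gave 451, 680, 303, 238 and 3 called genes of all tested, against 458, 691, 316, 248 and 3. Without one library at a time the counts of members lay between 3 and 4, 3 and 3, 2 and 2, 0 and 1, and 0 and 0. Rxra was not called between the lines without unstimulated tSema4B replicate 3 or unstimulated vector replicate 1. For NE in tSema4B, Cebpb was called without unstimulated tSema4B replicate 1 and Cebpd without its replicate 3. Thinned reads left 1 member called for NE in vector (Cebpd). The adjusted p alone gave 4 there, 2 for NE in tSema4B, and 6 and 4 between the lines without and with NE. A pseudocount of 10 left 3 for tSema4B against vector without NE, where Rxra was at -0.99.

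Of 710 values of single members under alternatives, 687 kept direction and call, 4 lost and 2 gained a call, and 17 changed sign. None of the 17 was called at first, and the cause was not tested. Cebpb between the lines without NE was -0.0651 with thinned reads and between -0.2893 and 0.4058 with a library left out. Cebpa for NE in vector was -0.011 with the same total per library and between -0.2422 and 0.2095 with a library left out. For NE in tSema4B, Ebf2 lay between -0.7501 and 0.0377 and Zfp423 between -1.3805 and 0.0174 with a library left out. In the interaction, Ebf2 lay between -0.0691 and 0.7187 and Zfp423 between -0.5925 and 0.8054, and Zfp423 was 0.0171 with the same total, 0.1019 with a pseudocount of 10 and 0.2247 after quantile normalization.

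Rescaling to the same total moved the share of higher calls among all genes from 35.3% to 48.9% (346 higher and 362 lower) for tSema4B against vector with NE. The interaction count over all genes was 3, but 87 by DESeq2, which gave an adjusted p to 5950 of the 11998 genes, 7 with thinned reads, 0 without the filter and 1 to 31 with a library left out. It was 31 without unstimulated tSema4B replicate 2 and 12 without NE-treated tSema4B replicate 1. For NE in tSema4B, a model of only the libraries compared called 157 genes, against 248, and for NE in vector it called 415, against 316. Depth limits Rxrg, Zfp423 and the tSema4B values of Ebf2, where a few reads decide the level.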

Other observations

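The ratio of Pparg to Rxra, the genes of a receptor pair, differed between groups beside the levels given above. In normalized counts on the log2 scale its mean was 1.59 ± 0.43 (SD, n = 3) in unstimulated vector, 0.86 ± 0.45 in unstimulated tSema4B, 1.39 ± 0.19 in NE-treated vector and 0.17 ± 0.15 in NE-treated tSema4B. The lines overlapped in this ratio without NE and did not overlap after NE. The ratio of Pparg to Cebpd was 1.16 ± 0.40 in unstimulated vector, and it was -1.43 ± 0.09 in unstimulated tSema4B, -0.90 ± 0.38 in NE-treated vector and -2.78 ± 0.19 in NE-treated tSema4B. These ratios are not divided by gene length and are compared between groups only. Both ratios were chosen after the levels were seen and were not tested.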
